A study of Mus musculus with 14 samples.

Results

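The genes described here are 8 transcripts that mark nonmyelinating and immature Schwann cells (SCs): *Scn7a*, *Ngfr*, *L1cam*, *Ncam1*, *Gfap*, *Chl1*, *Ednrb* and *Matn2*. They were taken by symbol from a count table of 24062 genes, in which all 8 were found and all 8 passed the filter on low counts in every comparison. They were read in whole tissue by bulk RNA-seq of 14 libraries, 1 per mouse. Control libraries (n = 3) came from dorsal root ganglia (DRGs) with their nerves of mice labelled Nf1fl/fl, which carry the floxed allele without the Cre. Plexiform neurofibromas (PNs, n = 11) came from mice labelled DhhCre;Nf1fl/fl, in which the *Dhh* promoter drives Cre, and so loss of *Nf1*, in the SC lineage. By volumetric MRI at 7 and 9 months of age, 6 PNs had gained over 35 mm3 in 2 months and are called fast growing, and 5 had changed by under 5 mm3 and are called slow growing. All mice shared a mixed background of C57BL/6, I-129 and FVBN and had received no drug. The methods of the study give 9 months as the age at collection of both tissues, and a legend gives 7 months. The groups were compared to ask whether transcripts of SCs that do not make myelin differ between PNs and normal nerve, and between PNs that grow fast and PNs that do not.

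SCs wrap the axons of peripheral nerves. Immature SCs of the embryonic nerve sort axons and become either myelinating SCs, each of which wraps a single large axon, or nonmyelinating SCs (NMSCs), which hold bundles of small axons. Mature NMSCs keep molecules that myelinating SCs switch off, among them the surface proteins Ngfr, L1cam and Ncam1 and the filament protein Gfap, and SCs of an injured nerve express these again. Several of these genes are not used by SCs alone: sensory neurons use *Ngfr*, *L1cam* and *Ncam1*, and satellite glial cells of the ganglion, which surround neuronal cell bodies, use *Ednrb*. In bulk RNA, more cells of a type and more RNA per cell cannot be told apart.

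Libraries held 9596773 to 17594164 counts on genes. Levels are given in CPM, the counts of a gene relative to the TMM-scaled total of its library, and 3 counts, taken here as the lowest level that can be read, came to 0.166 to 0.317 CPM. The ribosomal transcript *Rn45s* took 16.2% to 17.6% of the counts of controls and 3.48% to 18.1% of those of PNs. Labels were checked against markers. The summed level of 6 genes used across the SC lineage (among them *Sox10*, *S100b*, *Erbb3*, *Gpm6b* and *Cnp*) ran from 546 to 1456 CPM in controls and from 1435 to 2724 CPM in PNs. The summed level of 13 neuron markers ran from 1783 to 6375 CPM in controls and from 2475 to 14270 CPM in 10 PNs, and was 50.9 CPM in fast-growing PN 1191, which stands apart. Controls also held skeletal muscle and fat: 12 muscle markers summed to between 3784 and 15381 CPM in controls and to between 26.8 and 3458 CPM in PNs, and 10 fat markers to between 4021 and 6163 CPM in controls and 17.8 and 3304 CPM in PNs. Neither sum overlapped between the groups. *Nf1* was read at 171 ± 51.5 CPM (SD, n = 3) in controls and 248 ± 22.9 CPM (n = 11) in PNs. The table counts whole genes, so this level does not check the deletion of the floxed part.

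The 8 genes lie on 7 chromosomes. In mm10, with the GENCODE M21 annotation, they are protein coding, and *Ngfr* and *Gfap* share chromosome 11. The exons of *L1cam* overlap those of *Arhgap4* on the same strand, those of *Ncam1* overlap *Gm11149* and those of *Matn2* overlap *9430069I07Rik*, both on the opposite strand. How reads on overlapping genes were assigned, by strand or otherwise, is not given in the sources used here. The overlaps can therefore alter the counts of these 3 genes, and strand could separate the reads only for *Ncam1* and *Matn2*. *Scn7a* spans chr2:66673425-66784914 and *Gfap* spans chr11:102887336-102900912, both on the minus strand.

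Sequences of the 250 bases before the start site, from RefSeq on GRCm38.p6, were found for 6 of the 8 genes, and *Ncam1* and *Matn2* had no entry. They are shown for 3 genes to set a gene that separated fast from slow growth (*Gfap*) beside a gene that rose in every PN (*Scn7a*) and the gene with the smallest rise called (*Ednrb*). Each was searched on both strands for the core letters bound by factors of SCs and their injury response: ACAAAG and ACAATG (SOX), TGANTCA (AP-1) and GGAATG (TEAD). Capitals mark a match, and no capitals mean that none of these letters was present. The windows are chr2:66784911-66785160 (*Scn7a*), chr11:102897201-102897450 (*Gfap*) and chr14:103843702-103843951 (*Ednrb*), all read 5′ to 3′ on the minus strand.
Scn7a: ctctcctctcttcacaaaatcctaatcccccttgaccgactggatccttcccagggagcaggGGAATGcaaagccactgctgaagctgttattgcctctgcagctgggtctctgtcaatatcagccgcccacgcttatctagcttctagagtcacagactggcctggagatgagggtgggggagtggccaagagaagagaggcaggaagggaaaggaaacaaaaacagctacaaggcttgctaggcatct
Gfap: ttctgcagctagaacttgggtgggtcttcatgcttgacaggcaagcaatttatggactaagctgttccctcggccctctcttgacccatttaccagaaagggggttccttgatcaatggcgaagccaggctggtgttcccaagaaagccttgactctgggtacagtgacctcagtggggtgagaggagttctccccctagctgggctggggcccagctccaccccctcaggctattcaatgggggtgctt
Ednrb: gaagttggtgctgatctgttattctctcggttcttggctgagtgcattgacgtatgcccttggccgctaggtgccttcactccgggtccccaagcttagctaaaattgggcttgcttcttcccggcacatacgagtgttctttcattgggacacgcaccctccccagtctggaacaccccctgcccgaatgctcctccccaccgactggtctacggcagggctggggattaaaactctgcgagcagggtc
The *Scn7a* window held GGAATG, 188 bases before the start, a match found in 12.6% of 32851 such windows. The *Gfap* and *Ednrb* windows held no match. Neither did those of *Ngfr* and *L1cam*. The window of *Chl1* held ACAAAG on the other strand, 145 bases before the start, as did 16.5% of windows on either strand, but all 250 bases of that window lie in an annotated exon. ACAATG was found in 10.7% of all windows and TGANTCA in 6.75%. A match is a string of letters and not a shown binding site. The 3 windows also differed in CpG count, with 3 in *Scn7a*, 2 in *Gfap* and 11 in *Ednrb*. The *Gfap* and *Ednrb* windows lie inside the annotated span of the gene and in no annotated exon, and 4 bases of the *Scn7a* window overlap an exon.

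Between PNs and controls, 7 of the 8 genes were higher and 0 were lower. Only *Ngfr* did not pass the test. In the same fit 26.3% of 16283 genes were called and 12.9% were called higher (edgeR's quasi-likelihood test, Benjamini-Hochberg adjusted p under 0.05). The median log2 fold change was 2.29 over the 8 genes and 0.10 over all genes tested. For 4 of them (*Scn7a*, *L1cam*, *Ncam1* and *Chl1*) every PN lay above every control, which held for 8.18% of all genes tested. The members follow by role. Slow- and fast-growing PNs were each fitted against the same 3 controls, so those comparisons share them.

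**Figure D1:**
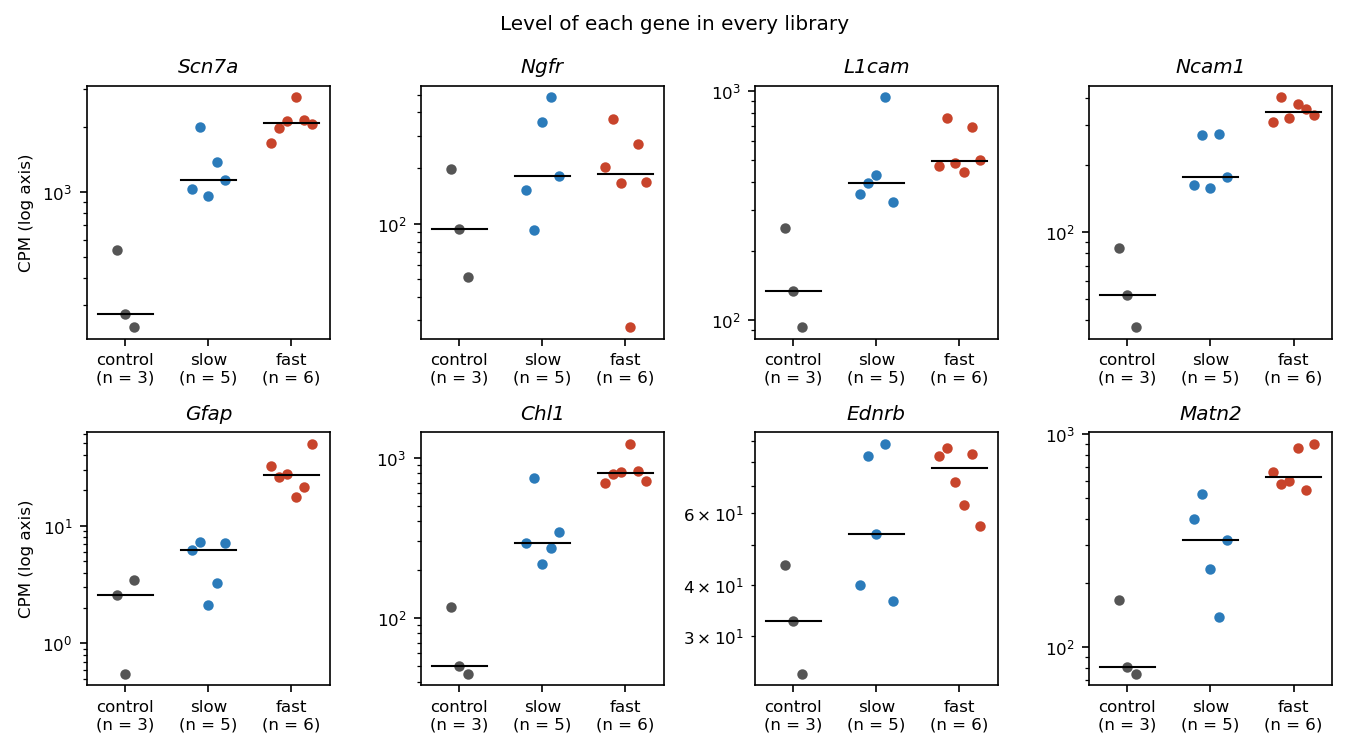
CPM (log axis) of each of the 8 genes in every library, by group. Points are libraries and the bar is the group median. *Scn7a*, *L1cam*, *Ncam1* and *Chl1* separate all PNs from controls, *Gfap*, *Ncam1* and *Matn2* also separate fast- from slow-growing PNs, and *Ngfr* overlaps between all groups.

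*Scn7a* encodes a sodium channel of NMSCs and other glia that opens with extracellular sodium rather than with voltage. It was the most abundant of the 8 per kilobase of exon in every group. Its level was 535, 273 and 237 CPM in controls DRG3, DRG4 and DRG5. In slow-growing PNs it was 1028.5 CPM in 1079, 1993 in 1198A, 952 in 1202, 1372 in 1203 and 1129 in 1206. The 6 fast-growing PNs ran from 1674 to 2731 CPM with a median of 2088. Every PN was above DRG3, the highest control, and 4 of 6 fast-growing PNs were above every slow-growing PN, with 1198A inside the range of the fast group. *Scn7a* was 5.01-fold higher in PNs than in controls (log2 fold change 2.32, SE 0.39, edgeR adjusted p = 0.00063). The rise was 1.86 (SE 0.38, edgeR adjusted p = 0.0182) in slow-growing and 2.56 (SE 0.30, edgeR adjusted p = 0.00027) in fast-growing PNs on the log2 scale. Between fast- and slow-growing PNs the difference of 0.71 (SE 0.21) did not pass the test (edgeR adjusted p = 0.0946).

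Of the 12 other sodium channel subunits on the list used here, 11 were tested and 1 was higher in PNs, *Scn2b*, which encodes a beta subunit (log2 fold change 1.36, edgeR adjusted p = 0.0221). *Scn3b* and *Scn10a*, next in order of p, had log2 fold changes of 1.5 and 1.59 (edgeR adjusted p = 0.0936 and 0.322). The median of the 11 was 0.91, against 0.10 for all genes. In fast- against slow-growing PNs 0 of 11 were called by edgeR or DESeq2 and 0 had an unadjusted p under 0.05. Their median there was -0.82, and *Scn7a* had 0.71.

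Of the adhesion molecules, *L1cam* and *Chl1* encode paralogous surface proteins of the immunoglobulin superfamily that bind axons, and *Ncam1* encodes the neural cell adhesion molecule. *Chl1* was read at 118, 49.7 and 44.9 CPM in DRG3, DRG4 and DRG5. It was read at 294 CPM in slow-growing PN 1079, 746 in 1198A, 218 in 1202, 273 in 1203 and 341 in 1206. Fast-growing PNs ran from 697 to 1218 CPM with a median of 802. Every PN was above every control, and of the slow-growing PNs only 1198A reached the range of the fast-growing ones. *Chl1* was 8.90-fold higher in PNs (log2 fold change 3.15, SE 0.59, edgeR adjusted p = 0.00155), with a rise of 2.37 (SE 0.52, edgeR adjusted p = 0.0247) in slow-growing and 3.54 (SE 0.37, edgeR adjusted p = 0.00015) in fast-growing PNs. The difference between fast- and slow-growing PNs was 1.17 (SE 0.31, edgeR adjusted p = 0.0691), and it was 1.58 (edgeR adjusted p = 0.0034) without 1198A.

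*Ncam1* was read at 84.3, 52.0 and 37.3 CPM in DRG3, DRG4 and DRG5. Slow-growing PNs held 162 CPM (1079), 271 (1198A), 158 (1202), 274 (1203) and 176 (1206). Fast-growing PNs held 311 to 400 CPM, with a median of 345. The 3 groups did not overlap, and the coefficient of variation of 9.49% among fast-growing PNs was the lowest of the 8 genes in that group. *Ncam1* was 4.93-fold higher in PNs (log2 fold change 2.30, SE 0.36, edgeR adjusted p = 0.00041), by 1.80 (SE 0.33, edgeR adjusted p = 0.0118) in slow-growing and 2.55 (SE 0.24, edgeR adjusted p = 8.6e-05) in fast-growing PNs. Although fast- and slow-growing PNs did not overlap, the difference of 0.75 (SE 0.18) missed the threshold across all genes (edgeR adjusted p = 0.0572).

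*L1cam* was read at 252, 133 and 92.7 CPM in DRG3, DRG4 and DRG5. Slow-growing PNs held 354 CPM (1079), 397 (1198A), 430 (1202), 934 (1203) and 327 (1206), and fast-growing PNs held 440 to 763 CPM with a median of 491. All PNs exceeded all controls, and 1203 was the highest of all libraries. *L1cam* was 3.30-fold higher in PNs (log2 fold change 1.72, SE 0.38, edgeR adjusted p = 0.0041) and 3.39-fold higher in fast-growing PNs (1.76, SE 0.32, edgeR adjusted p = 0.0029). In slow-growing PNs the difference of 1.57 (SE 0.46) did not pass (edgeR adjusted p = 0.0605). It passed without 1203, at 1.25 (edgeR adjusted p = 0.0400), and without DRG3, at 2.06 (edgeR adjusted p = 0.0316). Fast- and slow-growing PNs differed by 0.19 (SE 0.28, edgeR adjusted p = 0.712).

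Of 10 other immunoglobulin superfamily adhesion genes of nerve, 2 were higher in PNs and 0 were lower: *Cadm1* (log2 fold change 1.70, edgeR adjusted p = 0.0044) and *Cadm4* (1.47, edgeR adjusted p = 0.0364), which encode adhesion molecules of SC and axon membranes. *Ncam2*, the paralog of *Ncam1*, had a log2 fold change of 1.25 (edgeR adjusted p = 0.0638). The median of the 10 was 0.57 in PNs against controls and -0.54 in fast- against slow-growing PNs, where 0 were called by edgeR, 1 by DESeq2 and 2 had an unadjusted p under 0.05.

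*Gfap* encodes the intermediate filament of astrocytes, NMSCs and injured SCs, and it was the least abundant of the 8 per kilobase. Its raw counts were low but above the 3-count floor everywhere: 30, 6 and 33 in DRG3, DRG4 and DRG5, and 21 to 97 in slow-growing PNs, against 232 to 736 in fast-growing PNs. In CPM, controls held 2.59, 0.555 and 3.49. Slow-growing PNs held 6.23 CPM (1079), 7.29 (1198A), 2.13 (1202), 3.29 (1203) and 7.14 (1206). Fast-growing PNs held 32.1 CPM (1053), 25.8 (1071), 27.7 (1179), 17.6 (1191), 21.4 (1214) and 49.4 (1216). Every fast-growing PN was thus above every other library, while slow-growing PNs 1202 and 1203 lay within the range of controls.

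In edgeR's fit *Gfap* was the only one of the 8 genes called between fast- and slow-growing PNs, while DESeq2 called 5 (*Gfap*, *Scn7a*, *Ncam1*, *Chl1* and *Matn2*), in a fit that called 852 genes higher and 740 lower. *Gfap* was 5.53-fold higher in fast-growing PNs (log2 fold change 2.47, SE 0.37, edgeR adjusted p = 0.0317), in a fit that called 1.27% of 15465 genes and called 0.802% higher. Only 0.336% of the genes tested had a larger log2 fold change. Leaving out 1 library kept the log2 fold change between 2.25 and 2.62, but the call was lost in 7 of 11 such fits (edgeR adjusted p up to 0.1205), those without 1079, 1202, 1206, 1053, 1179, 1191 or 1216. In these 7 fits, 2 to 8 of all genes tested were called higher and 0 lower. Against controls the rise was 3.66 (SE 0.57, edgeR adjusted p = 0.0012) in fast-growing PNs, with 12.7 times the level of controls, and 1.21 (SE 0.63, edgeR adjusted p = 0.222) in slow-growing PNs. Over all PNs it was 3.04 (SE 0.98, edgeR adjusted p = 0.0336), and this call was lost without DRG3, DRG4, DRG5 or 1214 (edgeR adjusted p of 0.0513 to 0.14).

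Of the filament genes *Vim*, *Nes*, *Synm* and *Prph*, 0 were called in PNs against controls or in fast- against slow-growing PNs by edgeR or DESeq2, and 0 had an unadjusted p under 0.05. Their median log2 fold change was 0.36 in the first comparison and -0.50 in the second. *Vim* was higher in fast-growing PNs than in controls (0.66, edgeR adjusted p = 0.0308).

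**Figure D2:**
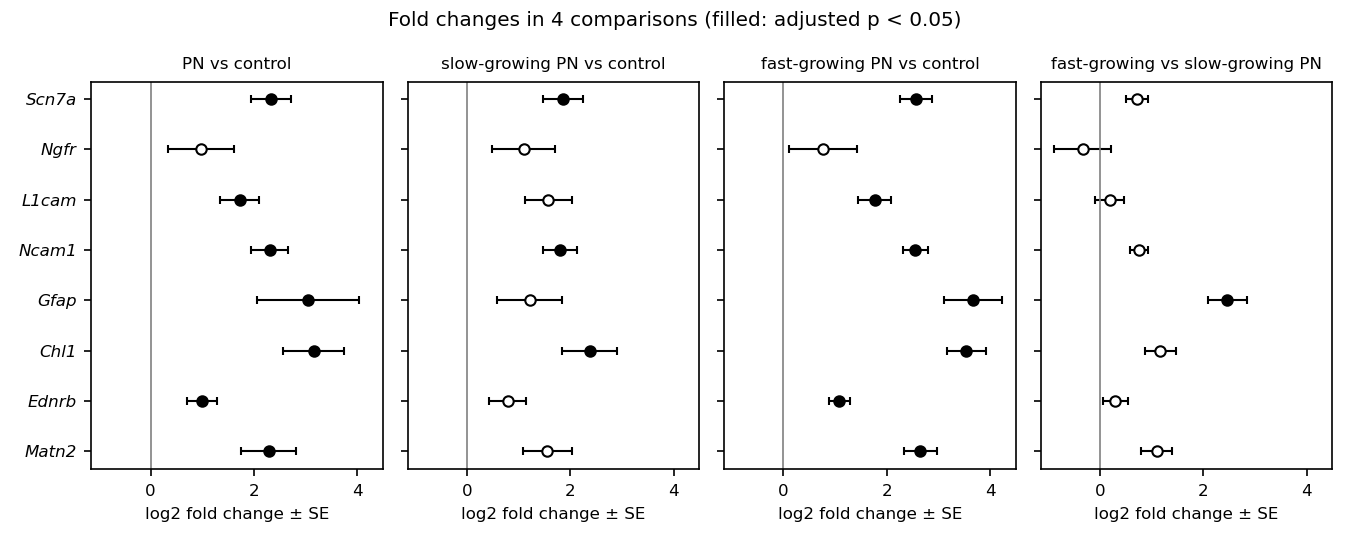
Log2 fold change ± SE from edgeR for each gene in 4 comparisons, with filled points where the adjusted p is under 0.05. In fast- against slow-growing PNs only *Gfap*, at 2.47, is filled, and *Ngfr* is the single gene below 0, at -0.33.

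*Matn2* encodes matrilin-2, a matrix protein of peripheral nerve. It was read at 167, 80.3 and 75.2 CPM in DRG3, DRG4 and DRG5. Slow-growing PNs held 398 CPM (1079), 524 (1198A), 234 (1202), 139 (1203) and 318 (1206), and fast-growing PNs held 547 to 897 CPM with a median of 630. Slow-growing PN 1203 was below the control DRG3, and all fast-growing PNs were above all slow-growing ones. *Matn2* was 4.87-fold higher in PNs (log2 fold change 2.28, SE 0.53, edgeR adjusted p = 0.0058) and rose by 2.65 (SE 0.32, edgeR adjusted p = 0.00033) in fast-growing PNs. The slow-growing group differed from controls by 1.55 (SE 0.47, edgeR adjusted p = 0.0694), and by 1.78 (edgeR adjusted p = 0.0237) without 1203 and 2.01 (edgeR adjusted p = 0.0413) without DRG3. Fast- and slow-growing PNs differed by 1.10 (SE 0.30, edgeR adjusted p = 0.0781).

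Among 7 other matrilin and basement membrane genes, 5 were tested and *Lama2*, which encodes the alpha chain of the SC laminin, was the only one called in PNs (log2 fold change 1.86, edgeR adjusted p = 0.012). *Matn4* and *Lama4*, next in order of p, had values of 1.07 and 0.91 (edgeR adjusted p = 0.0787 and 0.112). Against controls, fast-growing PNs had 3 of the 5 higher (*Lama2*, *Lama4* and *Fn1*), and in fast- against slow-growing PNs 0 of the 5 were called by edgeR and 2 by DESeq2, 3 had an unadjusted p under 0.05, and the median was 0.77.

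*Ednrb* encodes the endothelin receptor B, which SC precursors and immature SCs use. Controls held 44.6, 32.6 and 24.2 CPM. Slow-growing PNs held 39.8 CPM (1079), 82.8 (1198A), 53.1 (1202), 88.5 (1203) and 36.5 (1206), and fast-growing PNs held 55.8 to 86.8 CPM with a median of 77.1. Slow-growing PNs 1079 and 1206 lay within the controls and the other PNs above them. *Ednrb* was 2.0-fold higher in PNs (log2 fold change 1.0, SE 0.29, edgeR adjusted p = 0.0211), a call lost without DRG4 or DRG5 (edgeR adjusted p = 0.0875 and 0.136). It rose by 1.08 (SE 0.20, edgeR adjusted p = 0.0034) in fast-growing PNs, and the values of 0.79 for slow-growing PNs (edgeR adjusted p = 0.170) and 0.30 between growth groups (edgeR adjusted p = 0.520) did not pass. Of its ligands, their converting enzymes and the other receptor (*Edn1*, *Edn3*, *Ece1*, *Ece2* and *Ednra*), 0 of 5 were called by edgeR in any of the 4 comparisons. DESeq2 called 2 of the 5 in fast- against slow-growing PNs, where 2 had an unadjusted p under 0.05. *Ednra* had a log2 fold change of 0.50 in PNs (edgeR adjusted p = 0.458) and 1.12 between fast- and slow-growing PNs (edgeR adjusted p = 0.103).

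*Ngfr* encodes the low-affinity neurotrophin receptor p75, which immature SCs, NMSCs, injured SCs and sensory neurons share. It was read at 197, 93.9 and 51.8 CPM in DRG3, DRG4 and DRG5. Slow-growing PNs held 153 CPM (1079), 92.0 (1198A), 354 (1202), 482 (1203) and 182 (1206). Fast-growing PNs held 202 CPM (1053), 370 (1071), 166 (1179), 27.6 (1191), 269 (1214) and 168 (1216). All groups overlapped, and the lowest library of all was the PN 1191. The log2 fold change was 0.97 in PNs (SE 0.63, edgeR adjusted p = 0.277), 1.10 in slow-growing PNs (SE 0.61, edgeR adjusted p = 0.247) and 0.76 in fast-growing PNs (SE 0.65, edgeR adjusted p = 0.416). Without 1191 the value for PNs was 1.07 (edgeR adjusted p = 0.119), without DRG3 it was 1.62 and without DRG5 it was 0.62. Across fits without 1 library it ran from 0.75 to 1.73 in slow-growing PNs and from 0.46 to 1.38 in fast-growing PNs. *Ngfr* was called in none of these fits. The value between fast- and slow-growing PNs was -0.33 (SE 0.55, edgeR adjusted p = 0.744).

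Levels of *Ngfr* followed the neuron markers from library to library. The 13 neuron markers summed to 50.9 CPM in 1191, where *Ngfr* was lowest, and to 14270 CPM in 1203, where it was highest. Across 11 PNs the Pearson r of *Ngfr* with the summed neuron markers was 0.92 on the log2(CPM + 1) scale (permutation p = 3e-05, 0.00024 after adjustment over 8 genes), and Spearman's rho was 0.80 (permutation p = 0.0045, adjusted 0.0362). Without 1191 and 1203, the PNs farthest from the median, r was 0.78. It was 0.98 among the 6 fast-growing PNs. For the other 7 genes r lay between -0.59 (*Chl1*) and 0.33 (*L1cam*), and none passed after adjustment for r or rho. With the neuron score as a covariate in the fit, *Ngfr* was higher in PNs than in controls (log2 fold change 0.81, edgeR adjusted p = 0.0254) and in fast-growing PNs (0.84, edgeR adjusted p = 0.0109), while its value between fast- and slow-growing PNs turned to 0.20 (edgeR adjusted p = 0.704). Calls over all genes rose too with this covariate. They were 2837 higher and 2706 lower in PNs, in place of 2103 and 2180. In fast-growing PNs they were 2895 and 3283, in place of 2371 and 2672. Neuron markers themselves gave 0 calls among 13 by edgeR in all 4 comparisons, DESeq2 called 1, in slow-growing PNs, and at most 1 had an unadjusted p under 0.05 in any of them. Their medians were 0.57 for PNs and -0.69 for fast- against slow-growing PNs.

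Of 13 ligands, coreceptors and partners of Ngfr, 12 were tested, 2 were higher in PNs and 1 was lower. *Ntrk2*, which encodes the TrkB receptor, rose (log2 fold change 1.12, edgeR adjusted p = 0.0131). The other calls rest on few counts, and no fold is given for them. *Ntf5* (neurotrophin-4) rose from 2 to 3 counts in controls, at or under the 3-count floor in all 3, to 5 to 21 counts in PNs (edgeR adjusted p = 0.0117). *Ntf3* (neurotrophin-3) fell from 17 to 19 counts in controls to 0 to 9 counts in PNs, at or under the floor in 9 of 11 (edgeR adjusted p = 0.0133). The median of the 12 was 0.49, and in fast- against slow-growing PNs 0 of 11 were called by edgeR, 3 by DESeq2 and 5 had an unadjusted p under 0.05.

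In slow-growing PNs against controls, 3 of 8 were higher (*Scn7a*, *Ncam1* and *Chl1*), in a fit that called 11.3% of 15714 genes, 4.12% higher and 7.13% lower. For 4 of 8 every PN was above every control, against 11% of all genes. The 3 calls were lost without DRG4 or DRG5, when 0 of 8 passed and 5 had an unadjusted p under 0.05, and 5 of 8 passed without DRG3 or without 1203. Over all genes, 648 were called higher and 1121 lower with all libraries, 210 and 475 without DRG4, and 210 and 389 without DRG5. Without DRG3 these counts were 915 and 1539, and without 1203 they were 865 and 1089. In fast-growing PNs, 7 of 8 were higher, in a fit that called 31.4% of 16037 genes, 14.8% higher and 16.7% lower, and these 7 did not overlap with controls, against 17.2% of all genes. They passed without any single library. Between fast- and slow-growing PNs, 1 of 8 was called and 3 of 8 did not overlap (*Gfap*, *Ncam1* and *Matn2*), against 2.1% of all genes. Here the count was 0, with 5 at an unadjusted p under 0.05, without 1079, 1202, 1206, 1053, 1179, 1191 or 1216, 2 without 1203 (*Gfap* and *Ncam1*) and 5 without 1198A (*Scn7a*, *Ncam1*, *Gfap*, *Chl1* and *Matn2*). Calls over all genes changed as well. They were 124 higher and 72 lower with all libraries, 223 and 355 without 1203, and 889 and 305 without 1198A. In the fits with 0 members, 2 to 8 genes in all were called higher and 0 lower. Medians of the 8 log2 fold changes were 1.56 in slow-growing PNs, 2.56 in fast-growing PNs and 0.73 between them.

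An exact two-sided permutation test of the mean log2(CPM + 1) over libraries, adjusted over 32 tests, passed for 7 genes in PNs, 4 in slow-growing PNs, 7 in fast-growing PNs and 5 between fast- and slow-growing PNs. In the last comparison *Gfap* (a difference of 2.30), *Matn2* (1.21) and *Ncam1* (0.79) gave the smallest p that 6 against 5 libraries allow (exact p = 0.0022, adjusted 0.0126). *Chl1* (1.29) and *Scn7a* (0.75) gave an exact p of 0.0065 (adjusted 0.0208). The same genes were those with an exact p under 0.05. Of all genes tested, 38.6% had an exact p under 0.05 in PNs, 23.2% in slow-growing PNs, 41.4% in fast-growing PNs and 20.5% in fast- against slow-growing PNs, so this test is far less strict than the fit across all genes.

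Per kilobase of exon, *Scn7a* led in each group, with 47.5 ± 22.2 CPM per kb (SD, n = 3) in controls, 176 ± 57.4 (n = 5) in slow-growing and 289 ± 47.2 (n = 6) in fast-growing PNs. In controls *Ngfr*, *L1cam* and *Matn2* followed at 33.1, 21.7 and 17.2 CPM per kb, then *Ednrb*, *Ncam1* and *Chl1* at 7.93, 6.68 and 5.76, and *Gfap* came last at 0.524. Neighbours in this order overlapped except at *Matn2* and *Ednrb* and at *Chl1* and *Gfap*. In fast-growing PNs the order was *Scn7a*, *Matn2* (110), *L1cam* (75.9), *Chl1* (68.6), *Ngfr* (58.2), *Ncam1* (40.4), *Ednrb* (17.3) and *Gfap* (6.87). There neighbours overlapped from *Matn2* through *Ncam1*, and the other neighbours did not. In slow-growing PNs the order followed that of controls for the first 4 genes, *Chl1* (30.5), *Ncam1* (24.0) and *Ednrb* (14.1) then stood in the reverse of their order in controls, and the only neighbours without overlap were *Ednrb* and *Gfap* (1.24).

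To set the 8 genes against the amount of SC lineage RNA, each was divided by *Sox10*, the transcription factor of the lineage, and by *S100b*. *Sox10* itself was higher in PNs (log2 fold change 1.29, SE 0.39, edgeR adjusted p = 0.0242), while *S100b* had a value of 0.81 (SE 0.34, edgeR adjusted p = 0.0940). In fast- against slow-growing PNs neither passed (edgeR adjusted p = 0.866 for *Sox10* and 0.233 for *S100b*). Exact permutation tests of these ratios were adjusted together over 96 tests. In PNs against controls only *Chl1* rose relative to either reference, by 1.66 on the log2 scale relative to *Sox10* (exact p = 0.0027, adjusted 0.022) and by 2.14 relative to *S100b*. In slow-growing PNs none of these ratios passed, where the smallest exact p allowed is 0.0179 and the smallest adjusted p seen was 0.0927.

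In fast-growing PNs against controls, *Scn7a* (1.13), *Ncam1* (1.12), *Gfap* (2.45), *Chl1* (2.14) and *Matn2* (1.20) rose relative to *Sox10* (exact p = 0.0119, adjusted 0.0381).

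Between fast- and slow-growing PNs, *Gfap*, *Chl1* and *Matn2* were higher relative to both references. Relative to *Sox10* the differences were 2.32 for *Gfap*, 1.06 for *Chl1* and 0.98 for *Matn2*, in each case with no overlap of the groups (exact p = 0.0022, adjusted 0.022). Relative to *S100b* they were 3.03, 1.77 and 1.69 (adjusted exact p = 0.022, 0.0381 and 0.022). *Scn7a* and *Ncam1* passed relative to *S100b* only, with differences of 1.23 and 1.27 (adjusted exact p = 0.0381 and 0.022), and gave 0.52 and 0.56 relative to *Sox10* (exact p = 0.152 and 0.167). *Sox10*, the divisor, held 33.6 to 118 CPM in controls, 65.0 CPM in slow-growing PN 1203 and 116 to 236 CPM in the other 10 PNs, of which 1202, at 116 CPM, was also below DRG3.

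**Figure D3:**
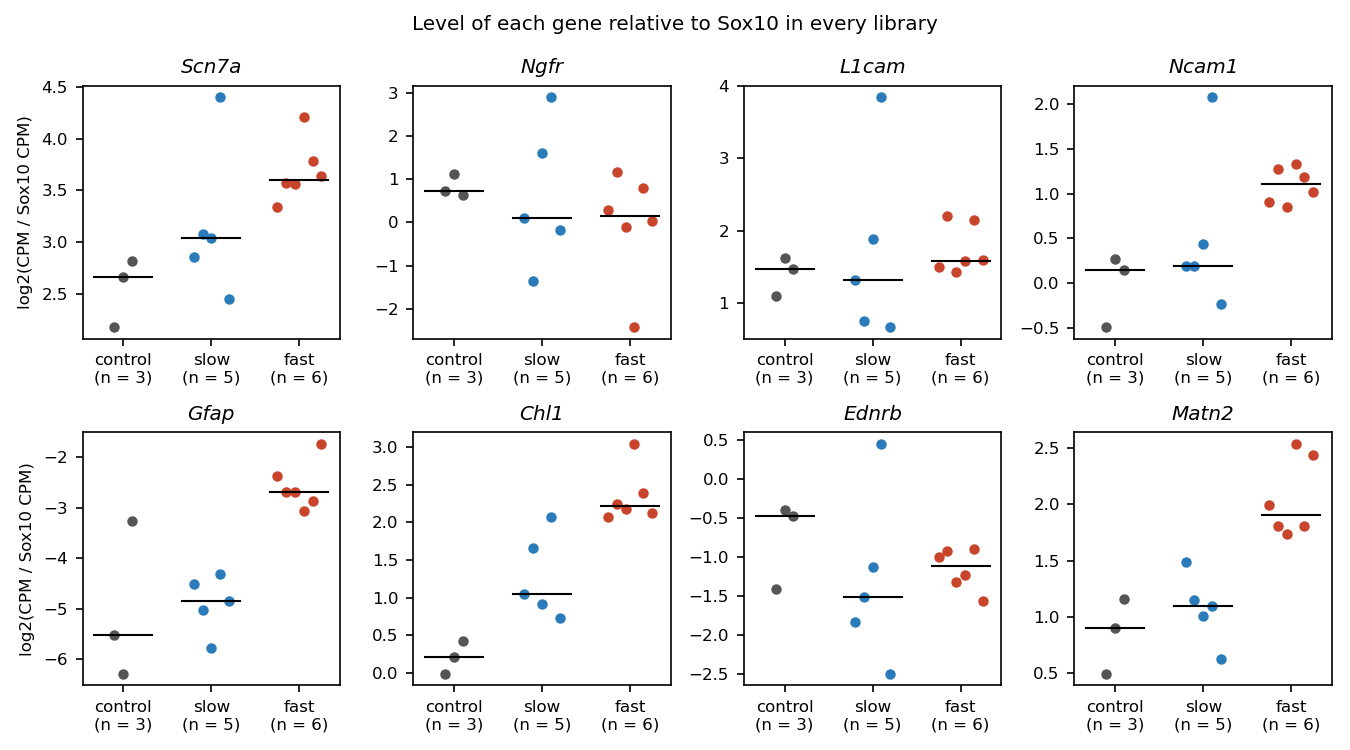
Log2 of the ratio of each gene to *Sox10* in every library, by group, with the group median as a bar. For *Gfap*, *Chl1* and *Matn2* all fast-growing PNs lie above all slow-growing PNs, while *Ngfr*, *L1cam* and *Ednrb* overlap between groups.

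Of 12 genes of myelinating SCs, 0 were called in PNs against controls by edgeR or DESeq2 and 0 had an unadjusted p under 0.05, with a median log2 fold change of 0.44. Against slow-growing PNs, fast-growing PNs had 3 of 12 lower and 0 higher: *Drp2* fell by 1.78, *Ncmap* by 1.56 and *Pllp* by 1.27 on the log2 scale (edgeR adjusted p = 0.0449, 0.0488 and 0.0484). These encode membrane-associated proteins of myelinating SCs. In this comparison DESeq2 called 10 of the 12 and 11 had an unadjusted p under 0.05. The median of the 12 was -1.08.

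Of 12 other genes of NMSCs, 7 were higher in PNs and 0 were lower, with a median of 1.49. *Cadm2* (log2 fold change 2.07, edgeR adjusted p = 0.0012), *Csmd1* (2.10, edgeR adjusted p = 0.0031) and *Ank3* (1.22, edgeR adjusted p = 0.0054) had the lowest p. In slow-growing PNs 1 of 12 passed and in fast-growing PNs 8 of 12. In fast- against slow-growing PNs 0 were called by edgeR, 3 by DESeq2 and 6 had an unadjusted p under 0.05, with a median of 0.57. Of 16 other genes of immature SCs and SC precursors, 6 were higher in PNs, with a median of 1.65, led by *Cdh19* (2.70, edgeR adjusted p = 0.00089), *Pou3f1* (2.55, edgeR adjusted p = 0.0071) and *Tfap2a* (1.83, edgeR adjusted p = 0.0082), which encode a cadherin and transcription factors of early SCs. Between fast- and slow-growing PNs, 4 of these 16 were higher and 0 lower: *Serpine2* (1.86, edgeR adjusted p = 0.0156), *Gdnf* (2.82, edgeR adjusted p = 0.0317), *Mcam* (1.03, edgeR adjusted p = 0.0449) and *Tfap2a* (1.03, edgeR adjusted p = 0.0484). DESeq2 called 9 of the 16 there, and 12 had an unadjusted p under 0.05. *Serpine2* encodes a protease inhibitor and *Gdnf* a trophic factor made by SCs of injured nerve.

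The study also chose marker lists from its single-cell clusters, read here with the members left out. Of 47 markers of NMSCs, 16 were higher and 2 lower in PNs (median log2 fold change 1.22), the counts were 32 and 4 for fast-growing PNs against controls, and 3 and 0 for fast- against slow-growing PNs. These are calls by edgeR. In the last comparison DESeq2 called 18 of the 47, and 30 had an unadjusted p under 0.05. Of 47 markers of SC precursor-like cells, 44 were tested, 16 were higher and 4 lower in PNs (1.33), and 6 were higher and 0 lower between fast- and slow-growing PNs. Between the growth groups DESeq2 called 23 of the 44, and 29 had an unadjusted p under 0.05. Of 8 satellite glial genes, 3 were higher in PNs: *Ttyh1* (2.02, edgeR adjusted p = 0.0011), *Ptprz1* (1.96, edgeR adjusted p = 0.0074) and *Kcnj10* (2.84, edgeR adjusted p = 0.0077), while *Glul*, the glutamine synthetase of these cells, had a value of -0.77 (edgeR adjusted p = 0.149). The median of the 8 was 0.09, against 0.10 over all genes. In fast-growing PNs against controls the same 3 were higher and 2 were lower by edgeR, *Glul* (-1.37, adjusted p = 0.0015) and *Slc1a3* (-0.68, adjusted p = 0.0103), a glutamate transporter. *Ttyh1* was the only one of the 8 that edgeR called higher in slow-growing PNs against controls (1.47, adjusted p = 0.0213) and in fast- against slow-growing PNs (0.83, adjusted p = 0.0376). DESeq2 called 3 of the 8 in the former comparison and 4 in the latter.

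Markers of other tissues differed between PNs and controls as well. Of 12 skeletal muscle markers 8 were lower in PNs and 0 higher (median log2 fold change -3.41), of 10 fat markers 3 were lower and 0 higher (-2.52), and of 7 endothelial markers 2 were lower and 0 higher (-0.84). Among controls, DRG5 held the most muscle (15381 CPM) and the lowest level of 7 of the 8 genes, and DRG3 held the least (3784 CPM) and the highest level of the same 7. With muscle and fat scores as covariates 0 of 8 genes were called by edgeR in any comparison. Of the 8, 3 kept an unadjusted p under 0.05 in PNs, 0 in slow-growing PNs, 3 in fast-growing PNs and 5 in fast- against slow-growing PNs. The share of all genes under that unadjusted cutoff was not counted, so these counts have no background to be read against. Over all genes this fit called 284 higher and 237 lower in PNs, in place of 2103 and 2180, and 0 genes in the other 3 comparisons. *Gfap* then had a log2 fold change of -0.46 in PNs (edgeR adjusted p = 0.830) and 2.02 between fast- and slow-growing PNs (edgeR adjusted p = 0.271). The other 7 members had positive log2 fold changes in PNs in this fit: 1.46 (SE 0.71) for *Chl1*, 1.36 (SE 0.92) for *Ngfr*, 1.23 (SE 0.52) for *L1cam*, 1.22 (SE 0.44) for *Ncam1*, 1.19 (SE 0.46) for *Scn7a*, 0.87 (SE 0.66) for *Matn2* and 0.46 (SE 0.47) for *Ednrb*. The 6 genes of the SC lineage had 4 higher and 0 lower in PNs (median 1.54). With their score as a covariate 0 of 8 members were called by edgeR in PNs and 3 had an unadjusted p under 0.05, while 200 genes of 16283 were called higher and 87 lower. The log2 fold changes in that fit were 1.66 (SE 0.54) for *L1cam*, 1.64 (SE 2.09) for *Gfap*, 1.59 (SE 0.52) for *Ncam1*, 1.34 (SE 0.80) for *Chl1*, 1.33 (SE 0.52) for *Scn7a* and 1.17 (SE 0.89) for *Ngfr*, each with a larger SE than without the covariate, while *Ednrb* had 0.79 (SE 0.48) and *Matn2* had 0.38 (SE 0.82). The same covariate gave 3 of 8 called in fast- against slow-growing PNs, where 388 genes of 15465 were called higher and 342 lower: *Gfap*, *Ncam1* (0.78, edgeR adjusted p = 0.0425) and *Matn2* (0.99, edgeR adjusted p = 0.0372). Since the muscle and fat sums did not overlap between PNs and controls, they and the genotype cannot be told apart in that comparison.

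Of 8 fibroblast and perineurial markers, 0 were called in PNs by edgeR and 2 by DESeq2, 4 had an unadjusted p under 0.05 (median 1.05), and 6 were higher in fast-growing PNs than in controls by edgeR. In fast- against slow-growing PNs 0 of the 8 were called by edgeR and 4 by DESeq2, and 6 had an unadjusted p under 0.05 (median 1.06). Of 6 macrophage markers tested, 0 were called by edgeR in either comparison, with medians of -0.21 in PNs and 1.69 in fast- against slow-growing PNs. DESeq2 called 4 of the 6 in the latter, where 5 had an unadjusted p under 0.05, and 0 in the former, where 0 did. Of 9 fat markers tested between growth groups 0 were called by edgeR and 8 by DESeq2, and 8 had an unadjusted p under 0.05 (median -3.69). For 12 muscle and 7 endothelial markers these counts were 0, 0 and 1 (median -1.58) and 0, 0 and 0 (median -0.16). The fat markers summed to 17.9 to 293 CPM in fast-growing PNs. In slow-growing PNs they summed to 17.8 CPM in 1203, below that range, to 235 in 1079, inside it, and to 1916, 2032 and 3304 in 1198A, 1202 and 1206. The part of fat, fibroblasts and macrophages in the *Gfap* difference was not tested.

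**Figure D4:**
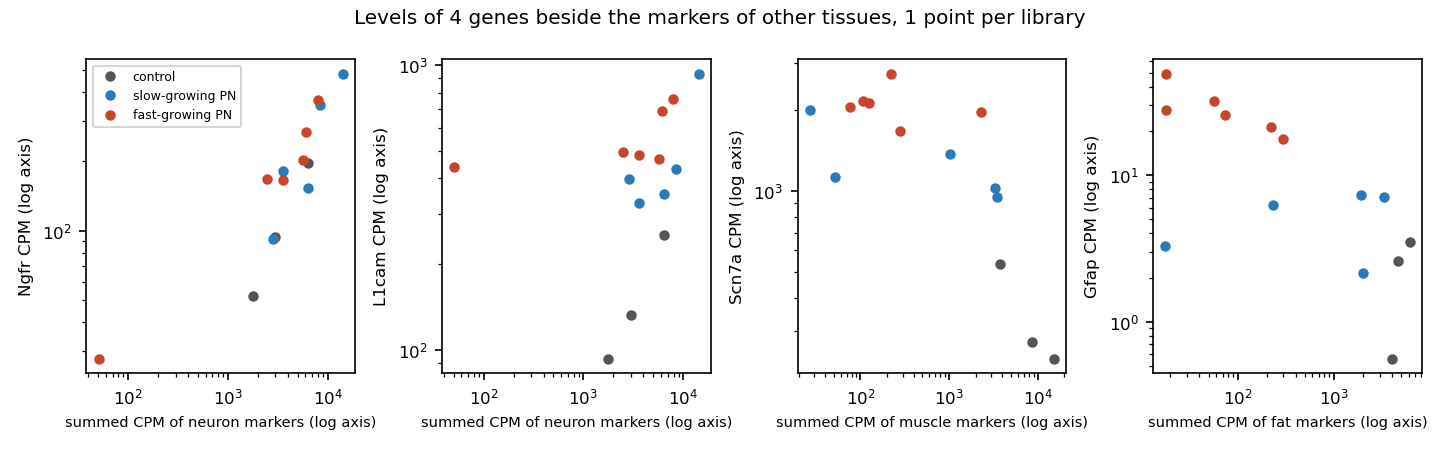
CPM of *Ngfr* and *L1cam* against summed neuron markers, of *Scn7a* against summed muscle markers and of *Gfap* against summed fat markers, 1 point per library, all axes log. *Ngfr* rises with neuron markers from 1191 (27.6 CPM) to 1203 (482 CPM), and the 3 controls lie at the muscle- and fat-rich end.

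Among themselves the 8 genes were alike in some pairs. Over 11 PNs, 11 of 28 pairs passed for Pearson's r after adjustment (permutation test) and 5 of 28 for Spearman's rho. These PNs include both growth groups. Within the 6 fast-growing PNs 3 of the 11 pairs had a negative r, all with *Gfap*: *Chl1* (0.81 over all PNs, -0.77 within), *Scn7a* (0.73 and -0.59) and *Ncam1* (0.76 and -0.52). *Scn7a* and *Chl1* were closest (r = 0.96, permutation p = 3e-05, adjusted 0.00084, and rho = 0.94, permutation p = 9e-05, adjusted 0.0025), with r = 0.93 after the 2 PNs farthest in *Scn7a* were left out and 0.92 within the 6 fast-growing PNs. *Gfap* and *Matn2* followed each other over all PNs (r = 0.86, permutation p = 0.00042, adjusted 0.0029, and rho = 0.89, permutation p = 0.00064, adjusted 0.0090), but within the fast-growing PNs r was 0.32. *Ngfr* passed with none of the other 7, and its r ran from -0.60 (*Matn2*) to 0.55 (*L1cam*).

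The genes most like each member were found among 16282 others by Pearson's r of log2(CPM + 1) over the 11 PNs, as a description without a test, and these PNs share the tissue and depth differences given above. For *Scn7a* they were *Spata13* (0.97), *Kcnh8* (0.97) and *Ntrk2* (0.96), and for *Chl1* they were *Kcnh8* (0.99), *Cyp2j6* (0.99) and *Ptk2* (0.98). For *Ncam1* they were *Slitrk2* (0.97), *BC051142* (0.95) and *Ttyh1* (0.95), and for *L1cam* they were *Ap3m1* (0.97), *Prkx* (0.97) and *Slc35f5* (0.97). For *Gfap* they were *Pcdhb11* (0.95), *Serpine2* (0.95) and *Egflam* (0.95). For *Matn2* they were *Lama2* (0.99) and *Lamc1* (0.98), which encode laminin chains, and *Rftn2* (0.98). For *Ngfr* they were *Slc29a4* (0.995), *Cda* (0.99) and *Hoxd1* (0.99), and for *Ednrb* they were *Etv1* (0.92), *Yeats4* (0.91) and *Cdh10* (0.90).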

How the data were processed

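Bulk RNA-seq was measured in 14 mouse libraries (3 control DRGs with nerves, 5 slow-growing and 6 fast-growing PNs). The authors extracted total RNA from frozen PNs, amplified it (NuGEN Ovation kit) and, per the labels, aligned reads to mm10 with TopHat2 2.0.9. They counted reads per gene with featureCounts 1.5.2, and the deposited table gives these raw counts for 24062 genes. A further deposited table holds log2 CPM after TMM scaling in edgeR 3.16.5 for 16382 genes, all 8 members included. The unit of 10 columns headed only by a mouse number was entered as other, and the authors' values there are log2 values too.

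Groups came from the labels. Counts were fitted in R 4.3.3 with edgeR 4.0.16 (filterByExpr, TMM, quasi-likelihood test), with only the libraries of a comparison in its fit, no covariate, Benjamini-Hochberg adjustment over all genes tested and calls at 0.05. Counts at an unadjusted p under 0.05, of members or of lists, have no share over all genes beside them. The members and lists were chosen with earlier results of these data known. Genes are named by rule: all 8 members, the 3 genes of each list with the lowest p in PNs or between growth groups, the lineage genes *Sox10* and *S100b*, *Nf1*, and the 3 genes nearest each member. Results on some lineage genes, among them part of the 96 ratio tests, are not reported here. Other genes are named where a result turns on them, after their values were seen. Exact permutation tests used log2(CPM + 1), correlations 100000 permutations. The ratios to lineage genes, the relation to neuron markers and the added alternatives were chosen after seeing the data. Alternatives used DESeq2 1.42.0 and limma 3.58.1. Fits were tested on simulated data. Positions came from GENCODE M21, where current symbols found 22750 of the genes and synonyms 949 more.

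The labels do not say whether libraries of a group were prepared together, so p-values measure the spread between mice and their libraries. Intervals of counting error are not given, since amplified reads are not independent molecules.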

Additional observations from a re-analysis of the deposited data

Results flagged for a closer look

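In 16 groups of libraries (8 genes in slow- and in fast-growing PNs), 3 values, in 2 libraries, lay farther from the rest of their group than Dixon's 95% limit allows, where chance gives about 1 in 20 groups. Fast-growing PN 1191 was the lowest in *Ngfr*, at 27.6 CPM, and the highest in *Chl1*, at 1218 CPM. The same library held 50.9 CPM of summed neuron markers, against 2475 to 7937 CPM in the other 5 fast-growing PNs. Slow-growing PN 1203 was the highest in *L1cam*, at 934 CPM, and held 14270 CPM of summed neuron markers, the most of all libraries.

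*Gfap* differed between the growth groups, with a log2 fold change of 2.47 in fast- against slow-growing PNs (edgeR's quasi-likelihood test, adjusted p = 0.0317), and with all 6 fast-growing PNs above all 5 slow-growing PNs.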

How the results depend on the processing

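No paired analysis was possible because the labels give the groups no shared replicate numbers. Of the alternative values for single genes, 598 kept their direction and their side of the threshold, 59 lost the call, 24 gained one and 7 reversed. With muscle and fat scores as covariates, the number of members called was 0 in all 4 comparisons, and *Gfap* in PNs (-0.46) and *L1cam* in fast- against slow-growing PNs (-0.033) reversed. With the pan-Schwann score, added after seeing the data, the number was 0 in PNs, 0 in slow-growing PNs, 1 in fast-growing PNs (*Ncam1*) and 3 in fast- against slow-growing PNs. *Matn2* in slow-growing PNs (-0.11), *Ngfr* in fast-growing PNs (-1.20) and *Ngfr* in fast- against slow-growing PNs (0.19) reversed there. With the neuron score the last value was 0.20. At a threshold of 0.01 the number was 0 in slow-growing PNs and 0 in fast- against slow-growing PNs. DESeq2 called 5 members in each of these comparisons, and a 3-group fit called 5 in slow-growing PNs. By limma-voom *Gfap* was not called in PNs (adjusted p = 0.192). The causes were not tested.

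Without 1 library the number was 5 to 7 in PNs, 0 to 5 in slow-growing PNs, 7 to 7 in fast-growing PNs and 0 to 5 in fast- against slow-growing PNs, where *Ngfr* ranged from -0.56 to 0.037, the latter without 1203. The number of all genes called changed between these fits as well. Over all genes in fast- against slow-growing PNs, edgeR called 124 higher and 72 lower, DESeq2 852 and 740, the 3-group fit 220 and 203, RLE scaling 70 and 60, limma-voom 27 and 7, and the threshold of 0.01 2 and 0. In slow-growing PNs, edgeR called 648 and 1121, DESeq2 1568 and 1971 and the 3-group fit 1592 and 1688. Genes with longer transcripts had higher values in PNs, with medians of -0.31 in the shortest and 0.30 in the longest of 5 length bins, and 7 members were called after the length and GC trend was removed. *Gfap*, with 6 to 33 counts in controls, has the least depth.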
